A study of Mus musculus with 6 samples.

Results

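The OAS family encodes the 2′-5′-oligoadenylate synthetases and their relatives, and 10 members of the family, Oas1a, Oas1g, Oas2, Oas3, Oasl1, Oasl2, Oas1c, Oas1d, Oas1e and Oas1h, were followed in tumor-infiltrating Tregs. They were selected by gene symbol from the 15319 symbols of the count table, and all 10 were listed. Oas1b and Oas1f were looked up as well, and neither was among the genes with a count. The family was proposed with the counts of some of its members already known to differ between the groups, so each comparison of cKO with WT for a member is a description and carries no test. The symbols fell into 6 members known as interferon-induced genes and 4 paralogs, Oas1c, Oas1d, Oas1e and Oas1h, known mainly from the ovary and its oocytes.

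OAS enzymes bind double-stranded RNA (dsRNA) and then join ATP into short oligoadenylates with 2′-5′ bonds. These oligoadenylates (2-5A) act as messengers in antiviral defence, and most members are transcribed after interferon signaling at the interferon-stimulated response element (ISRE). The mouse has many Oas1 copies beside each other, and Oas1d, which lacks synthetase activity, is known from oocytes as an inhibitor of the active enzyme.

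RNA-Seq was performed on Tregs sorted from lung-colonizing tumors of 3 WT (Foxp3Yfp-Cre) and 3 cKO (Xrcc6flox/floxFoxp3Yfp-Cre) libraries. In both genotypes Cre is expressed from the Foxp3 locus, and in cKO mice it removes Xrcc6, which encodes the DNA repair protein Ku70, in cells that express Foxp3. All mice received LLC cells, a lung carcinoma line from mouse, through the tail vein at 8 to 10 weeks of age, and tumors were taken at day 21. Whether each library came from 1 mouse or a pool, and the sex of the mice behind each library, are not given in the sources used here, so the spread between libraries may be partly technical.

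Total counts were 19032620 to 23159815 per library, and levels are given as CPM, scaled by TMM. A gene with 0 counts could still hold up to 3 counts, or 0.133 to 0.156 CPM by library. These limits cover counting error only. WT replicate 2 stood apart, with 11513 genes counted against 14442 to 14737 in the other 5 libraries, so values are also given without it. Xrcc6, the targeted gene on chromosome 15, was at 20.9, 63.1 and 23.8 CPM in the WT libraries, in the order of their replicate numbers, and at 5.24, 3.51 and 4.18 CPM in the cKO libraries. The same order is used throughout. All cKO libraries were below all WT libraries, and the log2 fold change was -3.06 (standard error 0.48, edgeR quasi-likelihood test, adjusted p = 0.984) and of -2.38 without WT replicate 2 (adjusted p = 0.0196). The summed level of 6 Treg markers (Foxp3, Il2ra, Ctla4, Ikzf2, Cd4 and Cd3e) was 3596 to 4401 CPM in WT and 3682 to 3970 CPM in cKO libraries. All 6 were counted in every library, and no other sorted cell type was at hand for comparison. By log2 fold change 3 were above 0 and 3 below. Only Ctla4 had every cKO library below every WT library, as did 3.23% of genes. It was at 1263, 1395 and 1247 CPM in WT and at 1116, 1236 and 875 CPM in cKO libraries (unadjusted p = 0.225, edgeR). In bulk RNA, fewer cells of a type and less RNA per cell cannot be told apart.

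The members lie in 2 clusters on chromosome 5 of GRCm38 (GENCODE vM21). The first, from 120730333 to 120921652, spans 191.32 kb and holds 8 members in the order Oas2, Oas3, Oas1e, Oas1c, Oas1h, Oas1g, Oas1a and Oas1d. The second, from 114896936 to 114937915, spans 40.98 kb and holds Oasl2 and Oasl1. The Oas1 copies are close in sequence, and longest coding transcripts of Oas1a and Oas1g were 97.5% identical over 1860 aligned bases, with a shared run of 526 bases that is longer than a 150-base read. Within the ovarian group, Oas1d and Oas1e were 91.1% identical, Oas1c and Oas1d 88.3% and Oas1c and Oas1e 88.2%, with longest shared runs of 80 to 86 bases. Oas1h was 81.0% to 82.6% identical to those 3, and either Oas1a or Oas1g was 73.9% to 76.0% identical to any of the 4 ovarian paralogs.

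Promoter sequences are shown for the 4 members in which the ISRE core was found and for Oas1h, an ovarian paralog in which it was not. RefSeq promoters (GRCm38.p6) were given for 7 of the 10 members, Oas1d, Oas1e and Oas2 being the others. The 250 bases before each start were searched on both strands for the ISRE core, GAAA followed by any 2 bases and GAAA. It was found in Oas1a, Oas1g, Oas3 and Oas1c and not in Oasl1, Oasl2 or Oas1h, nor in the Oas1f promoter, which was also searched, whereas 2.98% of 32851 promoters in the table held it. The 150 bases before the start are printed 5′ to 3′ along the gene's strand, with the matches in capitals.
Oas1a, chr5:120907526-120907675, minus strand: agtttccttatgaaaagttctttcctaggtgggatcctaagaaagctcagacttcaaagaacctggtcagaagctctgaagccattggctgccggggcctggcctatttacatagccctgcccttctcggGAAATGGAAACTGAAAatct
Oas1g, chr5:120887614-120887763, minus strand: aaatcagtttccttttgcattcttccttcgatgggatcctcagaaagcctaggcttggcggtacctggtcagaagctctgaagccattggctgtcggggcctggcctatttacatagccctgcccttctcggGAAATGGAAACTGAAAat
Oas3, chr5:120777660-120777809, minus strand: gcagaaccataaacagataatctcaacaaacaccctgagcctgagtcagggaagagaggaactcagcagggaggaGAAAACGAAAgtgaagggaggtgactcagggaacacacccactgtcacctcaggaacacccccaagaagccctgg
Oas1c, chr5:120812515-120812664, minus strand: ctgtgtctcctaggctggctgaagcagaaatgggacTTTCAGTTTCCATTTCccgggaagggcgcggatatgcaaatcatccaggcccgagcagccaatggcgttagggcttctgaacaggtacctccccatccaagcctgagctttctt
Oas1h, chr5:120861272-120861421, plus strand: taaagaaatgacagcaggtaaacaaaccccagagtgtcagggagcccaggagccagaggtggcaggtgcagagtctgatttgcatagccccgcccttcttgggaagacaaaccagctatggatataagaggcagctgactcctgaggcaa
Oas1a and Oas1g each held 2 overlapping matches, the first base of which lay 20 and 14 bases before the Oas1a start and 18 and 12 bases before the Oas1g start. The single Oas3 match began 75 bases before the start. Oas1c, of the ovarian group, held 2 overlapping matches on its other strand, beginning 114 and 108 bases before its start and close to the divergent Oas1b start. Oas1h held no match in this window. A match is a description of letters and was not tested as a site.

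In WT Tregs the family was dominated by Oas1a and Oas3, and the 3 paralogs Oas1d, Oas1e and Oas1h had no count. Oas1a and Oas3 together made up 68.3% to 82.5% of the members' CPM in the 6 libraries, and Oas1c, although known from the ovary, made up 7.24% to 15.0%. Per kilobase of exon, the mean level in WT was 21.5 ± 3.81 for Oas1a, 4.55 ± 1.61 for Oas1c, 4.51 ± 1.27 for Oas3, 1.26 ± 0.457 for Oas2, 0.969 ± 0.710 for Oasl2, 0.923 ± 0.842 for Oasl1 and 0.162 ± 0.154 for Oas1g, in CPM per kilobase (SD, n = 3), and Oas1d, Oas1e and Oas1h were at 0. In the cKO group it was 25.7 ± 3.12 for Oas1a, 5.46 ± 0.615 for Oas1c, 4.76 ± 0.459 for Oas3, 1.55 ± 0.168 for Oasl1, 1.21 ± 0.344 for Oasl2, 1.18 ± 0.286 for Oas2, 0.200 ± 0.0765 for Oas1d, 0.190 ± 0.0667 for Oas1e, 0.149 ± 0.157 for Oas1g and 0.136 ± 0.0305 for Oas1h. Oas1a was above the others in all 6 libraries. Oas1c was above Oas3 in 5 of 6 libraries but their ranges overlapped. Oasl1, Oas2 and Oasl2 did not differ beyond their spread in either group, nor did Oas1d, Oas1e, Oas1g and Oas1h in the cKO group. With the longest transcript in place of all exons the order of these neighbours changed over the 6 libraries, with Oas3 at 6.94 above Oas1c at 5.25, and Oasl2 at 2.22 above Oasl1 at 1.48 and Oas2 at 1.37 CPM per kilobase.

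**Figure D1:**
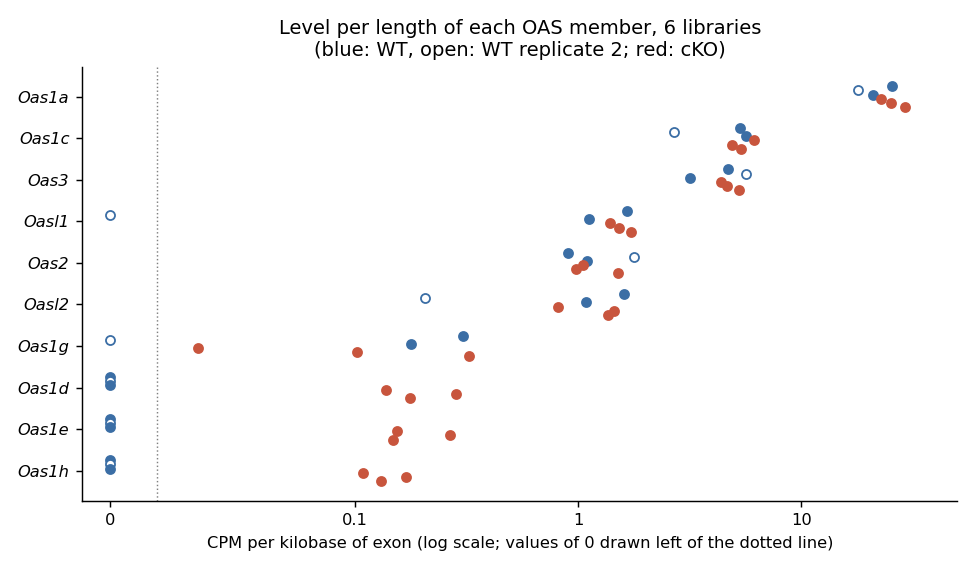
Level of each member in CPM per kilobase of exon on a log axis, with 1 point per library (blue, WT, with WT replicate 2 open; red, cKO) and values of 0 drawn left of the dotted line. Oas1a sits at 17.9 to 29.0, Oas1c and Oas3 at 2.70 to 6.12, and all WT points of Oas1d, Oas1e and Oas1h are at 0.

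Oas1a, the main active synthetase of the Oas1 copies, was at 48.1, 33.8 and 39.6 CPM in the WT group. In the cKO group it was at 43.1, 47.4 and 54.7 CPM. The groups overlapped, at 40.5 ± 7.19 and 48.4 ± 5.88 CPM (SD, n = 3), and cKO over WT gave a log2 fold change of 0.26 (standard error 0.19), or 0.14 without WT replicate 2.
Oas1g, its near-identical copy, was at 0.717, 0 and 0.417 CPM in WT and at 0.0464, 0.240 and 0.756 CPM in cKO libraries, and no order between the groups was seen. The deposited estimates of Oas1a and Oas1g were each not whole in 5 of 6 libraries, yet their sums were 1021, 719, 768, 929, 992 and 1247, whole within 0.011 in every library. Oas1g was the only symbol whose values completed those of Oas1a in this way, and it took 0% to 1.44% of the sum. Single-copy values of this pair are therefore uncertain, whereas their sum is not affected by how reads were divided between them.

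Oas3, a synthetase with several OAS domains, was at 33.3, 40.1 and 22.4 CPM in WT libraries and at 30.8, 32.9 and 37.2 CPM in cKO libraries. The lowest and the highest values were both WT libraries, and all cKO values lay between them. The means were 31.9 ± 8.94 and 33.6 ± 3.25 CPM, and the log2 fold change was 0.08 with a standard error of 0.24, or 0.27 without WT replicate 2. Its deposited values were not whole in 6 of 6 libraries, and no single other symbol completed them.
Oas2, a synthetase with a pair of OAS domains, was at 4.02, 7.90 and 4.90 CPM in WT and at 4.69, 4.37 and 6.72 CPM in cKO libraries. WT replicate 2 was the highest of the 6. The log2 fold change was -0.09 (standard error 0.47), and 0.24 without that library.

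Oasl1 lacks synthetase activity and is known to hold back translation of the interferon regulator IRF7. It was at 4.3, 0 and 2.92 CPM in WT and at 3.62, 3.99 and 4.49 CPM in cKO libraries. WT replicate 2 had no count, and the other WT libraries overlapped the cKO group. The fitted difference was 0.74 on the log2 scale (standard error 1.29) with that library and 0.16 without it.
Oasl2, an OAS-like protein with a ubiquitin-like end, was at 10.3, 1.32 and 6.93 CPM in WT and at 5.20, 9.22 and 8.72 CPM in cKO libraries. WT replicate 2 was again the lowest, and the highest value was also a WT library. Its log2 fold change was 0.32 (standard error 0.70), or -0.16 without WT replicate 2.
Summed over the 6 interferon-induced members, the level was 101, 83.1 and 77.1 CPM in WT and 87.4, 98.1 and 113 CPM in cKO libraries. The groups overlapped at 87.0 ± 12.2 and 99.4 ± 12.6 CPM (SD, n = 3). Over all 15315 genes with a count the median log2 fold change was 0.04, and it was 0.17 over these 6 members, 4 of which were above 0 and 2 below.

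**Figure D2:**
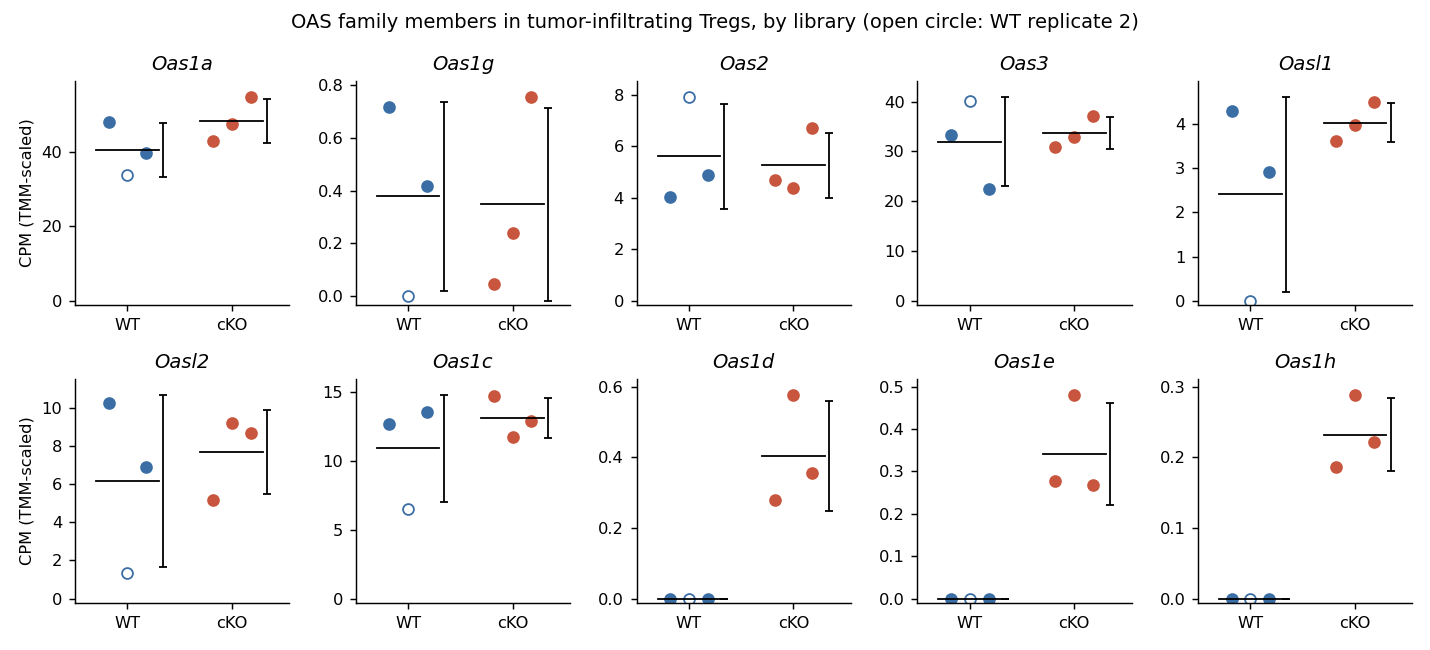
CPM of the 10 members by library, with the group mean (line) and SD (bar), and WT replicate 2 as an open circle. The groups overlap for the 7 members with counts in WT, and for Oas1d, Oas1e and Oas1h the WT points lie at 0 below all cKO points.

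Among the ovarian paralogs, Oas1c was counted in every library. It was at 12.7, 6.49 and 13.6 CPM in WT and at 14.7, 11.8 and 12.9 CPM in cKO libraries, that is 138 to 317 counts per library. The lowest value was WT replicate 2, and the other WT libraries lay within the cKO range. The log2 fold change was 0.27 (standard error 0.36) and fell to -0.00 without WT replicate 2. For Oas1c the label of an oocyte-expressed paralog did not go with absence from these libraries, since it was counted in all of both genotypes. Its level in oocytes was not measured here. In WT replicate 2, 29 of 29 oocyte markers were at 0. That library counted only 11513 genes and also had no count for Oasl1, so its zeros say little. The antisense gene Gm43069 overlaps the spans of Oas1c and Oas1e. On the other strand, Gm13822 overlaps the span of Oasl1 and Gm43068 that of Oas2. Strand use in counting is not given in the sources used here.

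**Figure D3:**
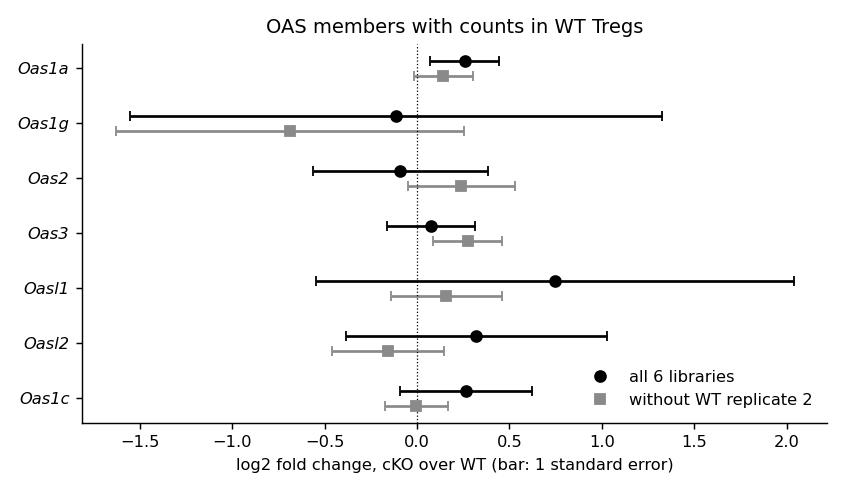
Log2 fold change of cKO over WT with 1 standard error for the 7 members with counts in WT, over all 6 libraries (circles) and without WT replicate 2 (squares). With all libraries the values run from -0.11 for Oas1g to 0.74 for Oasl1, and without WT replicate 2 from -0.69 for Oas1g to 0.27 for Oas3.

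The other 3 ovarian paralogs, Oas1d, Oas1e and Oas1h, had 0 counts in each WT library. Oas1d, the inhibitor known from oocytes, had 6, 12 and 8 counts in cKO replicates 1, 2 and 3, which was 0.404 ± 0.155 CPM (SD, n = 3). This mean was 2.75-fold the limit of 3 counts per WT library. Such folds leave out the counting error of the cKO libraries and are not lower bounds.
Oas1e had 6, 10 and 6 counts in the cKO libraries (0.342 ± 0.120 CPM, with a mean 2.33-fold that limit). Oas1h had 4, 6 and 5 counts (0.232 ± 0.0520 CPM, with a mean 1.58-fold the limit). Each cKO value was above the limit of every WT library, but the family was proposed with such values known, so this supports nothing. The count was 63 reads in all, at 16, 28 and 19 per cKO library.
Oas1d was 37.5%, 42.9% and 42.1% of the 3 paralogs' counts in cKO replicates 1, 2 and 3. Deposited values of Oas1d and Oas1e summed to 11.9, 22 and 14, and in cKO replicate 1 the sum was whole, within 0.011, when Oas1c was added (328.99), as when reads are divided among copies. Oas1h had whole values in all 6 libraries. The 4 ovarian paralogs summed to 6.49 to 13.6 CPM in WT and 13.1 to 15.5 CPM in cKO libraries. Because these values chose the family, the counts that follow are given beside the background with nothing read from them.

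With edgeR's quasi-likelihood test and Benjamini-Hochberg adjustment, 0 of 10 members were called, as were 0% of the 15315 genes, while DESeq2 called 2 genes and 0 members. At an unadjusted p under 0.05, 3 members (Oas1d, Oas1e and Oas1h) were higher in cKO where 0.94% of genes were, and 0 were lower where 0.868% of genes were. DESeq2 had 2 members among 95 higher genes at that limit and 0 among 212 lower genes. The same 3 were higher without WT replicate 2, where 1.51% of genes were. Those 3 also had all cKO libraries above all WT libraries, as did 5.01% of genes, and no member had all below, as did 3.23%. Against WT replicates 1 and 3 alone, 8.48% of genes had all cKO libraries above. A count of 0 in all WT libraries with at least 1 in each cKO library was found in 0.601% of genes, and in 0.633% when only WT replicates 1 and 3 had to be at 0. A low-count filter (edgeR's filterByExpr, minimum 10) was passed by 6 of the 10 members, and Oas1d, Oas1e, Oas1g and Oas1h were removed by it.

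Oocyte markers were examined as the other gene group known from the cell that expresses the ovarian paralogs. Of 48 oocyte genes 29 were listed, and their summed counts were 51, 0 and 48 in the WT group and 151, 190 and 185 in the cKO group. In scaled units these were 0 to 2.50 CPM and 7.01 to 9.13 CPM, and the groups did not overlap. WT libraries counted 8, 0 and 7 of the 29 genes and cKO libraries 27, 28 and 27. None of the 29 passed the adjusted test by edgeR, and 15 were higher and 0 lower at an unadjusted p under 0.05, against 0.94% and 0.868% of all genes. Without WT replicate 2, 17 were higher, against 1.51%. The 15 became 4 by DESeq2, 1 with a replicate block and 0 with the low-count filter, which removes genes with so few counts. Since 20 of the 29 had no count in WT, they were listed through their cKO counts and could not have been lower, so the direction of these counts supports nothing.
The zona pellucida gene Zp3 had 0 counts in WT and 8, 6 and 10 counts in cKO libraries (unadjusted p = 0.0068, edgeR). Zp2, of the same egg coat, had 0 in WT and 4, 6 and 7 in cKO libraries. Padi6, a component of oocyte cytoplasmic lattices, had 1, 0 and 0 counts in WT and 10, 11 and 9 in cKO libraries. These were counts of the same size as those of Oas1d, Oas1e and Oas1h.
Bcl2l10, a BCL2 relative abundant in oocytes, had 0 counts in WT and 5, 6 and 9 in cKO libraries, and Oog3 had 0 in WT and 5, 9 and 4. Gdf9, the oocyte growth factor, had 3, 0 and 9 counts in WT and 15, 23 and 23 in cKO libraries (unadjusted p = 0.114). In all, 20 of the 29 genes had every cKO library above every WT library, as did 5.01% of all genes, and 9 overlapped between the groups. Of the latter, Khdc3 had 13, 0 and 17 counts in WT and 15, 9 and 11 in cKO libraries, and Npm2 had 15, 0 and 7 and then 17, 15 and 16. Bmp15, Figla, Nlrp5 and Mos were not among the listed symbols.
Among the 29, 20 genes were at 0 in every WT library. Of these, 15 had a count in every cKO library, a pattern found in 0.601% of all genes. Listed through their cKO counts alone, these 15 could only lie above WT. Counts of Oas1d, Oas1e and Oas1h together were 26.7%, 32.6% and 20.7% as large as those of the 20 genes in cKO replicates 1, 2 and 3. Ovary somatic cell markers (10 of 14 listed) overlapped between the groups, at 2.96 to 7.09 CPM in WT and 4.08 to 4.80 CPM in cKO libraries, and Fshr, Cyp19a1, Inhbb and Hsd3b1 were not listed. Testis and sperm markers (5 of 16 listed) were at 0 to 4.25 CPM in WT and 1.38 to 2.60 CPM in cKO libraries.

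**Figure D4:**
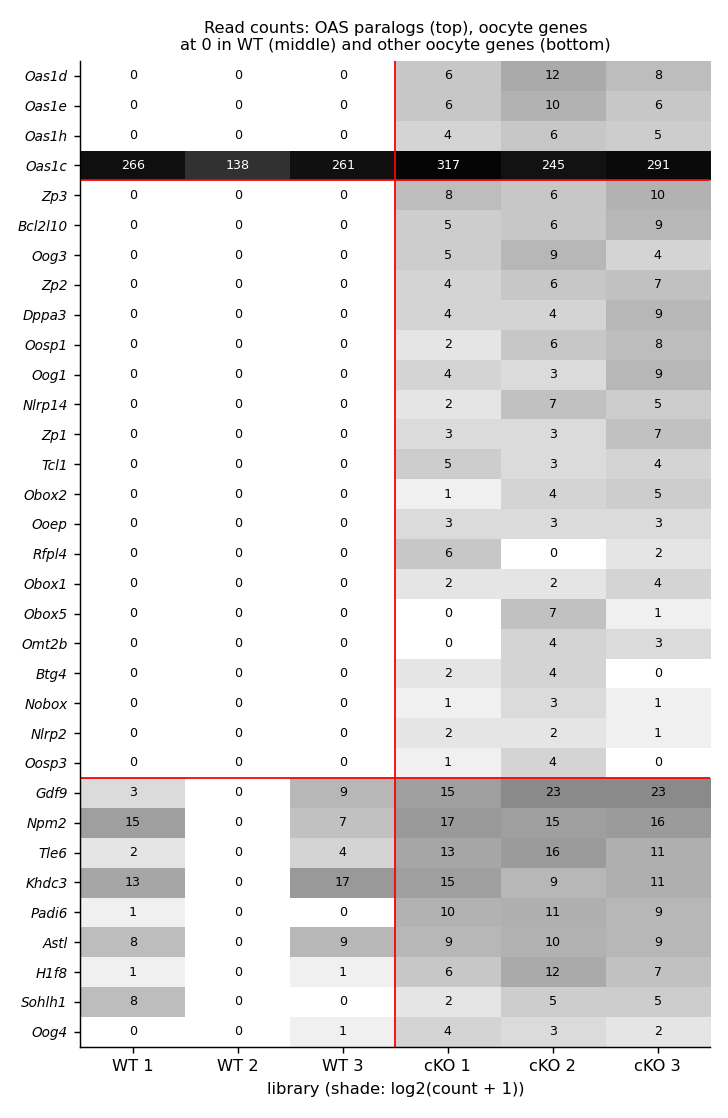
Read counts per library (numbers; shade, log2 of count plus 1) for the 4 ovarian OAS paralogs, the 20 oocyte genes at 0 in all WT libraries, and the 9 other oocyte genes. Oas1c is at 138 to 317 counts in every library, the other 3 paralogs are at 0 in WT and at 4 to 12 in cKO, and WT replicate 2 has 0 counts for all 29 oocyte genes.

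Markers of other cell types were measured in the same libraries, and their part in the counts of Oas1d, Oas1e and Oas1h was not tested. Neutrophil markers (10 of 12 listed) summed to 31.5 to 49.5 CPM in WT and 45.4 to 49.5 CPM in cKO libraries. Within that list Retnlg had 0 counts in WT and 19, 13 and 34 in cKO libraries (unadjusted p = 0.00237, edgeR), Ngp had 0 in WT and 8, 8 and 7, and S100a9 had 2, 0 and 4 in WT and 24, 28 and 43 in cKO libraries. Their adjusted p was 0.984. These 3 of the 10 listed genes were higher and 0 were lower at an unadjusted p under 0.05, against 0.94% and 0.868% of all genes. Retnlg and Ngp were listed through their cKO counts alone and could only lie above WT. Of the 10 genes 8 had a log2 fold change above 0 and 2 below, where all genes split 8343 to 6972. Cxcr2, at 9.17 CPM in WT and 6.12 CPM in cKO libraries on average, was at -0.58 (unadjusted p = 0.166). In other lists Pax5 (unadjusted p = 0.0441, edgeR) and Mzb1 (0.039), 2 of 7 B and plasma cell genes, were higher at an unadjusted p under 0.05. So was Vwf (0.0133), 1 of 11 endothelial and stromal genes, against 0.94% of all genes. In these lists 0 genes were lower at that limit. Pax5 had 0, 0 and 1 counts in WT and 0, 13 and 17 in cKO libraries. Mzb1 had 1, 0 and 2 and then 0, 22 and 67, so both overlapped between the groups. Vwf had 0, 0 and 1 counts in WT and 26, 5 and 6 in cKO libraries. The B and plasma cell list had 5 genes above 0 and 2 below, and Jchain, at 0.287, 41.7 and 2.81 CPM in WT and 0.510, 2.07 and 3.87 CPM in cKO libraries, was at -2.79, or 0.49 without WT replicate 2. The sums of the remaining lists overlapped between the groups, at 213 to 779 and 265 to 1167 CPM for macrophages and dendritic cells, 15.0 to 65.0 and 12.5 to 55.1 CPM for B and plasma cells, 5.26 to 26.4 and 25.1 to 28.4 CPM for CD8 T and NK cells, 97.4 to 156 and 95.3 to 129 CPM for lung epithelium, and 61.8 to 83.2 and 71.9 to 98.2 CPM for endothelial and stromal cells in WT and cKO libraries.

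Downstream of the synthetases, none of the 3 genes of the 2-5A list passed the test, and their summed level was 130 to 181 CPM in WT and 131 to 141 CPM in cKO libraries. Abce1 and Pde12, the second of which degrades 2-5A, had log2 fold changes of -0.24 and 0.13. Their groups overlapped, and without WT replicate 2 the log2 fold changes were 0.09 and 0.01.
Of 13 genes of dsRNA sensing, 0 were called in either direction at an unadjusted p under 0.05, and the median log2 fold change was 0.04. The sum of the list was 910 to 1193 CPM in WT and 994 to 1065 CPM in cKO libraries. Zc3hav1, the antiviral protein ZAP, was at 487 to 744 CPM in WT and at 506 to 582 CPM in cKO libraries. Zbp1, a sensor of Z-form nucleic acid, was at 64.6 to 132 and 101 to 145 CPM, and Adar, which edits dsRNA, at 77.3 to 82.1 and 71.0 to 88.6 CPM.
Of 20 interferon receptor and signaling genes 0 were called at that limit, with a median of -0.05 and a summed level of 4631 to 4915 CPM in WT and 4639 to 4758 CPM in cKO libraries. Ifngr1 and Jak1 had log2 fold changes of 0.10 and 0.20.

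Other interferon-stimulated genes were compared as the genes that share the induction of the OAS family. Of 48 genes 45 were listed, 31 with a log2 fold change above 0 and 14 below, where all genes split 8343 to 6972. The median was 0.19, or 0.02 without WT replicate 2. None passed the adjusted test, while 2 were higher and 1 was lower at an unadjusted p under 0.05, against 0.94% and 0.868% of all genes. In 6 of the 45, among them Slfn1, Ifit2 and Sp100, every cKO library was above every WT library, as in 5.01% of all genes. In 0 was every cKO library below, as in 3.23% of all genes. Against WT replicates 1 and 3 alone, 6 had all cKO libraries above, as did 8.48% of all genes.
Slfn1, a Schlafen gene of T cell quiescence, was at 52.4, 49.2 and 51.4 CPM in WT and at 60.6, 80.3 and 69.0 CPM in cKO libraries, which did not overlap (unadjusted p = 0.0178, adjusted p = 0.984, edgeR). Ifit2, which binds foreign RNA, was at 17.5, 10.2 and 15.3 CPM in WT and at 22.2, 22.9 and 21.3 CPM in cKO libraries (unadjusted p = 0.0475, adjusted p = 0.984). Nlrc5, the activator of MHC class I genes, was at 179, 296 and 220 CPM in WT and at 191, 138 and 142 CPM in cKO libraries (unadjusted p = 0.0421, adjusted p = 0.984), and its groups overlapped.
The most abundant of these genes, Shisa5, Tap1 and Sp100, had log2 fold changes of 0.11, 0.03 and 0.30. The summed level of the list was 5222 to 6161 CPM in WT and 5605 to 6449 CPM in cKO libraries. As for the 6 interferon-induced OAS members, the groups overlapped.

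**Figure D5:**
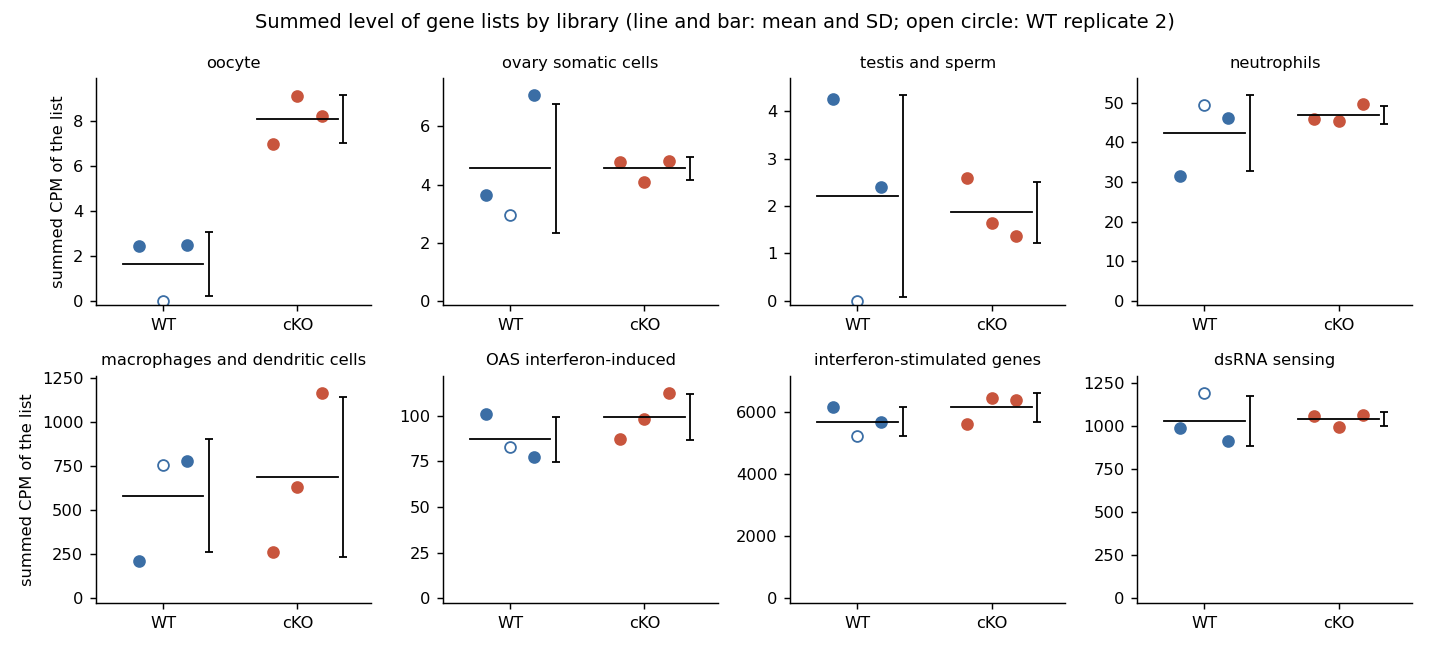
Summed CPM of 8 gene lists by library, with group mean (line) and SD (bar), and WT replicate 2 as an open circle. The oocyte sum is at 0 to 2.50 in WT and at 7.01 to 9.13 in cKO libraries, and the groups overlap in the other 7 panels, including the interferon-induced OAS members.

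Genes next to the clusters were followed as well. Dtx1, on the Oas2 side, was at 15.6, 88.0 and 74.9 CPM in WT and at 49.6, 53.5 and 73.7 CPM in cKO libraries. Beyond Oas1d, Rph3a had at most 4 counts in any library. Ptpn11, which encodes the phosphatase SHP2, was at 76.8 ± 4.69 CPM in WT and 64.0 ± 5.27 CPM in cKO libraries (SD, n = 3; edgeR quasi-likelihood, unadjusted p = 0.0893). All its cKO libraries were below all WT libraries, as in 3.23% of all genes. Rasal1 and the ribosomal protein gene Rpl6 overlapped between the groups, and so did 2210016L21Rik and Sppl3 next to Oasl1. None of the neighbours passed the test, and 4 neighbouring symbols, Cfap73, 1500011B03Rik, Gm9936 and 4930519G04Rik, were not listed.
Genes with the profile most like that of the summed members over the 6 libraries were taken by the smallest root mean square difference of centered log2(CPM + 0.5). For the interferon-induced sum these were Atp6ap1 (0.0420), Garem1, Efna2, Rab5b (0.0615) and Gm4832, of which Garem1, Efna2 and Gm4832 had at most 5 counts in any library. For the sum of the 4 ovarian paralogs, most of which was Oas1c, they were Utp4 (0.0263), Fbxo7, Naa30, Mrps27 and Srd5a1.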

How the data were processed

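RNA-Seq was performed on 3 WT and 3 cKO libraries of sorted tumor-infiltrating Tregs. From 150-base paired-end reads mapped to GRCm38, the authors made and deposited an expected count for each symbol, without normalization, and the submitters' processing notes name Bowtie2 (2.3.4.3) and RSEM (1.3.1). Of the deposited values 21.6% were not whole, and counts were rounded. Such estimates divide reads between near-identical copies. Whether strand was used is not given in the sources used here.

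Counts were scaled by TMM and tested with edgeR (4.0.16; quasi-likelihood, two-sided, Benjamini-Hochberg over 15315 genes with a count) in R (4.3.3). CPM are relative to the scaled total, from 19032620 to 23159815 counts per library before scaling. Members and lists were chosen with earlier results of these data known. Named genes were all members, in each list the 3 most abundant and up to 5 with an unadjusted p under 0.05, 3 neighbours on each side of the clusters, and the 5 genes most like 2 summed profiles. Some genes of this rule are not reported here. Each list's summed level is given in the report. Replicates differed beyond sampling noise. A fold against WT libraries at 0 used 3 counts per library. Protein identity was planned, but transcript identity (local alignment) was used in its place. Promoters were from RefSeq.

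On simulated data with a log2 fold change of 2 for 200 genes of 15263, edgeR recovered 127 with 10 false calls and DESeq2 156 with 100. The changed genes were drawn from those with a mean of at least 10 counts, and WT replicate 2 was not set apart. Recovery at the level of Oas1d, Oas1e, Oas1g and Oas1h was therefore not measured. Alternatives were DESeq2 (1.42.0), limma's voomWithQualityWeights (3.58.1), median-of-ratios scaling, library size only, filterByExpr (minimum 10), a replicate block, leaving out each library, and the longest transcript.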

Additional observations from a re-analysis of the deposited data

How the results depend on the processing

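At the level of Oas1d, Oas1e, Oas1g and Oas1h a few reads set each value, and the depth does not show whether the WT libraries lacked these transcripts. Leaving out WT replicate 2 turned the sign of the log2 fold change of Oas2, Oasl2 and Oas1c. Oas1g went from -0.11 to 0.74 without WT replicate 1 and to -1.36 without cKO replicate 3, and Oas3 to -0.12 without WT replicate 3. Under the alternatives, 152 values of the comparisons stayed close to the value reported, 50 moved and 2 newly passed the threshold, and of the values of single genes 112 stayed close and 14 moved. No called value turned its direction.
The count of genes with an adjusted p under 0.05 was 0, and 2 by DESeq2 (0 to 1 leaving out 1 library). At an unadjusted p under 0.05, 144 genes were higher, and 95 by DESeq2, 39 with filterByExpr, 262 by voomWithQualityWeights and 39 with the replicate block (45 without cKO replicate 3 and 51 without cKO replicate 2, and up to 287 without a WT replicate, 273 without WT replicate 1). The 133 lower genes became 212, 281 by voomWithQualityWeights and 46 with the block (20 without cKO replicate 3, 21 without cKO replicate 2 and 88 without cKO replicate 1, and 601, 229 and 288 without WT replicates 1, 2 and 3). Of the 3 members higher at that limit, 0 stayed with filterByExpr, which removes them, and 0 with the block (3 leaving out any library, though DESeq2 had 2).
The Xrcc6 log2 fold change passed the threshold by DESeq2 (-3.05, adjusted p = 1.2e-05) and without WT replicate 2 (-2.38), with -3.33 to -2.38 over the left-out libraries. The 2-5A list median was -0.011 by voomWithQualityWeights (-0.39 to 0.013, the latter without WT replicate 2). Genes at the unadjusted limit were 2 by voomWithQualityWeights for dsRNA sensing (0 to 1) and 1 for interferon signaling (0 to 1). For the interferon-stimulated genes 3 were found, and 1 with library size only, 6 by voomWithQualityWeights and 0 with the block (10 without WT replicate 1, and 0 without cKO replicate 2 or 3). Oocyte genes went from 15 to 4 by DESeq2, 0 with filterByExpr, which removes genes with so few counts, and 1 with the block (7 without cKO replicate 3, up to 17). Their median log2 fold change of 4.43 was 3.77 by DESeq2, 2.46 by voomWithQualityWeights and 4.22 with the block (4.31 to 4.59). With filterByExpr it was 1.60, but only over the oocyte genes that passed the filter, so it is not a median of the same genes. These medians depend on the prior count, and with both groups held at the limit of 3 counts per library the median was 0.43. Correlations between WT and cKO libraries of the same replicate number were 0.12, -0.07 and 0.22 for numbers 1, 2 and 3. Those of different numbers ran from -0.27 to 0.14. With 3 libraries per group these values cannot decide whether the libraries were paired. The cause of the shifts between settings was not tested.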

Other observations

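These values were looked at after the data were seen. The 92 genes at 0 counts in all WT libraries and above 0 in all cKO libraries summed to 344, 423 and 424 counts in cKO replicates 1, 2 and 3, and Oas1d had rank 4 among them by summed count. Beside Oas1d, Oas1e and Oas1h, 15 were on the oocyte list, 2 on the neutrophil list (Retnlg and Ngp) and 9 were Fbxw genes, an F-box family of which 19 genes had a count. In the other direction, 24 genes were at 0 in all cKO libraries and above 0 in WT replicates 1 and 3.
The summed profile of Oas1d, Oas1e and Oas1h was closest to those of the histone gene H3c14 (root mean square difference 0.148), Lcn2 (0.246), S100a9, Gabrd and Col6a1. Lcn2 and S100a9 are abundant in neutrophils, and the part of neutrophils was not tested. S100a8 of the neutrophil list had 7, 150 and 58 counts in WT and 82, 80 and 122 in cKO libraries, and its groups overlapped. H3c14 had 0 counts in WT and 23, 25 and 23 in cKO libraries, Lcn2 had 1, 0 and 0 and then 12, 16 and 11.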
